A study of Mus musculus with 6 samples.

Results

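The Hedgehog genes described here are 7 genes of the mouse Hedgehog pathway: the ligand gene Ihh, the receptor gene Ptch1, the signal transducer gene Smo, the transcription factor genes Gli1, Gli2 and Gli3, and the ligand-binding inhibitor gene Hhip. They were taken by gene symbol from a table of 38561 genes, in which each symbol matched 1 row, and not by their measured values. RNA sequencing measured them in undifferentiated cultures of embryonic stem cells (ESCs) from mice of strain 129X1/SvJ x 129S1/Sv, at passages 13 to 17. All groups shared the same culture: feeder-free growth on gelatin with 20% Knockout Serum Replacement and 1000 U/ml of leukemia inhibitory factor, with no treatment or genetic change given in the labels. Flow cytometry divided the cultures by 2 surface proteins, PECAM1, an adhesion molecule of undifferentiated ESCs, and PDGFRa, a growth factor receptor. The 3 fractions are called PDGFRa-only (PECAM1minPDGFRaplus in the labels), double-positive (PECAM1plusPDGFRaplus) and PECAM1-only (PECAM1plusPDGFRamin). Each had 2 libraries, made from 100000 sorted events apiece. The series title places PDGFRa-positive ESCs beside the precursors of primitive endoderm, the extraembryonic layer that forms next to the pluripotent epiblast before implantation.

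Hedgehog ligands are secreted proteins that bind Patched receptors on the receiving cell. Without ligand, Patched keeps the membrane protein Smoothened inactive, and the GLI proteins are processed largely into repressors; with ligand, Smoothened becomes active at the primary cilium and GLI activators accumulate. Ptch1, Gli1 and Hhip are themselves targets of the pathway in many tissues, so their RNA is commonly read as a sign of signalling, and in the mouse embryo Ihh is known as a ligand of the visceral endoderm, a derivative of primitive endoderm.

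The members with the highest and lowest ratios between fractions lie on the same chromosome. Ihh (ENSMUSG00000006538) spans positions 74945315 to 74951672 and Gli2 (ENSMUSG00000048402) 118834132 to 119053619 of chromosome 1, both on the minus strand of GRCm38. The 250 bases before the start of each are shown because these 2 genes differ most, and in opposite directions, between the fractions. They come from RefSeq (GRCm38.p6), at chr1:74951673-74951922 for Ihh and chr1:119053620-119053869 for Gli2, and are written 5′ to 3′ on the gene's strand with every CG dinucleotide in capitals.
Ihh: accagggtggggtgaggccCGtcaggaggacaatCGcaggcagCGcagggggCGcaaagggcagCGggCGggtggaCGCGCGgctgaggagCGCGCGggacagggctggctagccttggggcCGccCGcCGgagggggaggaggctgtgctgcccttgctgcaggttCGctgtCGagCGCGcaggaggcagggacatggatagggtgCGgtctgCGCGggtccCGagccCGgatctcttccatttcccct
Gli2: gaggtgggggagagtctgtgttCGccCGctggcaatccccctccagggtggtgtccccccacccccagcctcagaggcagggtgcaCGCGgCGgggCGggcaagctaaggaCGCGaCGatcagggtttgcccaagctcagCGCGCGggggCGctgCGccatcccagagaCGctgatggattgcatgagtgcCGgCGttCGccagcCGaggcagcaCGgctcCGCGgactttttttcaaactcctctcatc
The Ihh stretch holds 24 CG dinucleotides and the Gli2 stretch 22. RefSeq windows from 250 bases before to 50 bases after the start were given for 6 of the 7 genes, all but Gli1, and held 30 CG dinucleotides for Ihh, 47 for Ptch1, 17 for Smo, 28 for Gli2, 39 for Gli3 and 30 for Hhip, against a median of 7 over 32851 mouse promoters. The GLI site GACCACCCA, searched on both strands, was in none of the 6 windows and in 0.253% of all promoters. With 1 free base (GACCNCCCA) it was again in none of the 6 and in 0.977% of all. GATA sites (AGATAA or AGATAG or TGATAA or TGATAG, both strands), a search added after the values were seen, were in none of the 6 and in 29.8% of all. These results say only that those letters are not in these windows.

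The 6 libraries held 4809661 to 7273669 counts. Levels are given as CPM, that is, counts scaled to a common library size by edgeR. Differences were tested with edgeR's quasi-likelihood test over 13909 genes that passed a filter on low counts, with 1 spread estimated from all 6 libraries, and a gene was called where its Benjamini-Hochberg adjusted p over all tested genes was below 0.05. Each log2 fold change is positive where the first-named fraction is higher, and n is 2 libraries per fraction throughout. The labels number the libraries 1 and 2 without saying whether they come from separate cultures or sorts, so every p measures only the spread between these libraries. The 3 comparisons share libraries and are not independent of each other.

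As sums, marker genes followed the sort. Summed levels of 5 pluripotency markers were 880 to 905 CPM in the PECAM1-only libraries, 281 to 357 CPM in the double-positive and 107 to 149 CPM in the PDGFRa-only libraries. Those of 6 primitive endoderm markers were 18.6 to 21.2 CPM, 6724 to 7329 CPM and 9111 to 10186 CPM, in the same order. Most of the pluripotency sum in PDGFRa-only libraries was Pou5f1 (97.0 and 56.5 CPM, against 144 and 132 CPM in PECAM1-only). Nanog (0.449 and 0.453 CPM) and Sox2 (1.35 and 1.36 CPM) were nearly absent from PDGFRa-only libraries. Among other cell types, 5 fibroblast markers together reached at most 5.95 CPM and 4 gastrulation mesoderm markers at most 2.77 CPM in any library. Endothelial markers summed to 71.8 to 126 CPM in the PDGFRa-only, 55.2 to 75.2 CPM in the double-positive and 14.0 to 15.6 CPM in the PECAM1-only libraries. The rise of that sum came from Cdh5, with 117 and 61.0 CPM in PDGFRa-only against 0 and 0.157 CPM in PECAM1-only libraries. Tek was not called between them (log2 fold change -0.40, adjusted p = 0.187). Cd34 was lower in PDGFRa-only libraries (0 and 0.302 against 1.75 and 1.41 CPM). Tie1 had 2 counts in all and Emcn 0 counts in all 6 libraries. The part of such other cell types in the results below was not tested.

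Ihh, the ligand, was the member found in the PDGFRa-positive cells and almost absent from the others. Its level was 14.1 and 10.6 CPM in the PDGFRa-only libraries, 5.35 and 7.04 CPM in the double-positive libraries, and 0.146 and 0 CPM in the PECAM1-only libraries, where it had 1 count in all. The groups did not overlap: both PDGFRa-only libraries were above both double-positive libraries, and those above both PECAM1-only libraries. From summed counts, Ihh was 159-fold higher in the PDGFRa-only than in the PECAM1-only fraction (exact 95% counting interval 28.1 to 6330; log2 fold change 7.0, SE 0.63, adjusted p = 5.641e-09). It was 82.1-fold higher in the double-positive fraction (14.3 to 3283; adjusted p = 5.281e-07). The RNA was amplified and no molecular identifiers were used, so such intervals and floors reflect counting error only. In such sorted pools, fewer cells expressing a gene and less RNA per cell cannot be told apart.

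Between the fractions that carry PDGFRa, Ihh was 1.99-fold higher in PDGFRa-only cells (12.4 ± 2.52 against 6.20 ± 1.2 CPM, SD). That difference only just passed the test (log2 fold change 0.98, SE 0.32, adjusted p = 0.03866). It did not pass without PDGFRa-only replicate 1 (log2 fold change 0.77, adjusted p = 0.1478), without double-positive replicate 1 (0.79, adjusted p = 0.2891) or 2 (1.19, adjusted p = 0.08386), or with DESeq2 (1.02, adjusted p = 0.1199). The summed level of 6 visceral endoderm markers had the same order as Ihh, though not each marker did. It was 163 to 172 CPM in the PDGFRa-only, 96.9 to 110.0 CPM in the double-positive and 15.0 to 18.0 CPM in the PECAM1-only libraries. Hnf4a and Amn made up most of that sum. Ttr had 16.4 and 9.67 CPM in PDGFRa-only, 7.55 and 7.51 CPM in double-positive and 0 CPM in both PECAM1-only libraries. Apob was highest in double-positive libraries (3.15 and 3.91 CPM, against 2.24 and 2.72 CPM in PDGFRa-only). The defining markers Afp and Apoa1 were near 0, with 14 and 7 counts over the 6 libraries. The summed level of 5 parietal endoderm markers had the same order at a far higher level, with 16733 to 19780 CPM, 12254 to 13164 CPM and 325 to 346 CPM. The part of cells of either type in the Ihh level was not tested.

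**Figure D1:**
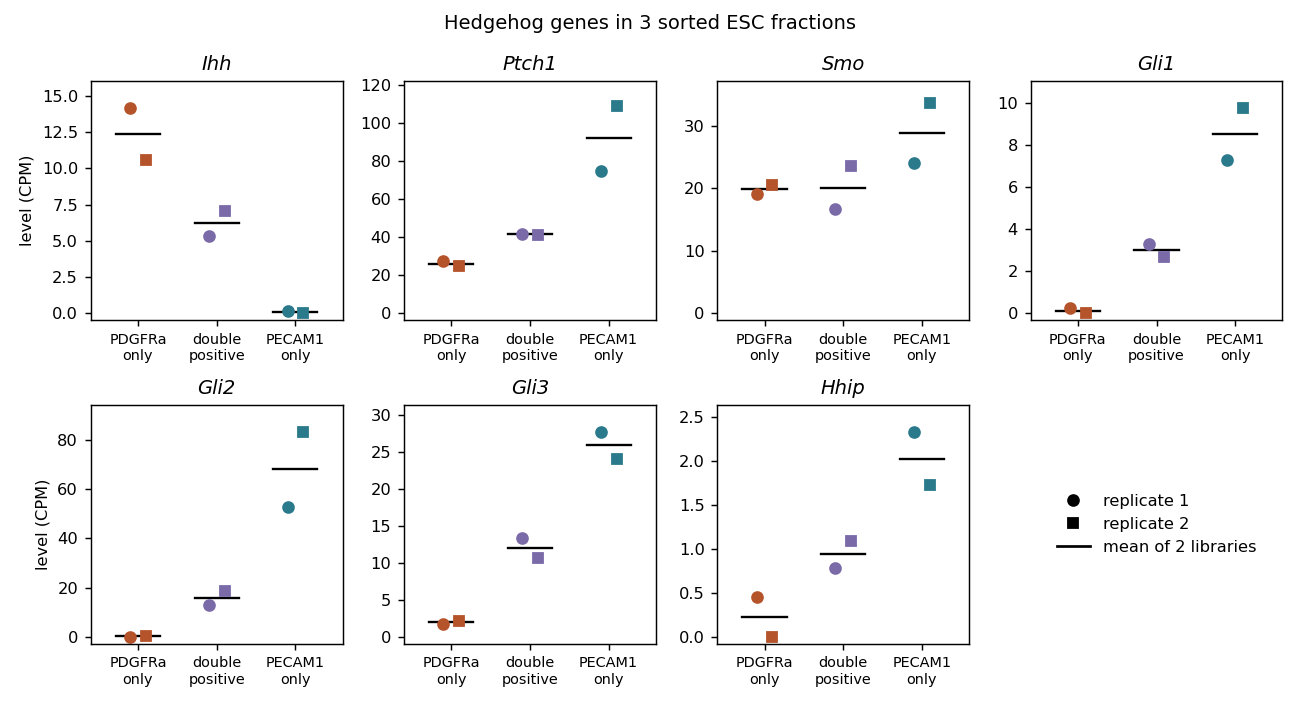
Level of each Hedgehog gene (CPM, linear axis from 0, its own scale per panel) in every library by sorted fraction; circles are replicate 1, squares replicate 2 and bars the mean of the 2 libraries. Ihh is highest in PDGFRa-only libraries (14.1 and 10.6 CPM), the other genes have their highest mean in the PECAM1-only fraction, and the double-positive libraries lie between the single-positive ones for every gene but Smo.

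Ptch1, the receptor that binds Hedgehog ligands and holds Smoothened inactive, ran opposite to Ihh but over a narrower range. It lies on chromosome 13, 63508328 to 63573598, minus strand (ENSMUSG00000021466). PECAM1-only libraries had 74.8 and 109 CPM, double-positive libraries 41.7 and 41.2 CPM, and PDGFRa-only libraries 27.6 and 24.5 CPM. No libraries of different fractions overlapped, and Ptch1 stayed well above 0 in all 6, with at least 123 counts in each. Its level in the PDGFRa-only fraction was 28.4% (SD 2.42) of the PECAM1-only mean. Ptch1 was 3.52-fold higher in PECAM1-only than in PDGFRa-only cells (log2 fold change -1.82 for PDGFRa-only, SE 0.20, adjusted p = 1.289e-07). Against the double-positive fraction it was 2.21-fold higher in PECAM1-only cells (log2 fold change -1.15 for double-positive, SE 0.19, adjusted p = 6.921e-05).

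Between PDGFRa-only and double-positive cells the Ptch1 difference was smaller, with a log2 fold change of -0.67 (SE 0.21, adjusted p = 0.0274). It did not hold when PDGFRa-only replicate 2 was left out (-0.59, adjusted p = 0.07003), when either double-positive replicate was (adjusted p = 0.1055 and 0.08882) and with DESeq2 (-0.64, adjusted p = 0.05558).

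Smo encodes Smoothened, the membrane protein that passes the signal into the cell (chromosome 6, 29735503 to 29761365, plus strand; ENSMUSG00000001761). It varied least of the 7 genes. Its level was 24.0 and 33.6 CPM in the PECAM1-only libraries, 16.7 and 23.5 CPM in the double-positive, and 19.1 and 20.5 CPM in the PDGFRa-only libraries. PECAM1-only libraries were above all others, but by little, and the PDGFRa-positive fractions overlapped. Smo did not pass the test in any comparison. The log2 fold change was -0.53 for PDGFRa-only against PECAM1-only (95% interval -1.02 to -0.05, adjusted p = 0.05403), -0.52 for double-positive against PECAM1-only (-0.99 to -0.04, adjusted p = 0.08055) and -0.02 for PDGFRa-only against double-positive (-0.51 to 0.48, adjusted p = 0.9732).

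These intervals leave room for a Smo difference of up to about 1 log2 unit, so they do not show that Smo was equal. The 2 comparisons with PECAM1-only sat at the threshold. Library-size scaling gave log2 fold changes of -0.82 (adjusted p = 0.004376) and -0.73 (adjusted p = 0.01364), both called, while leaving out PECAM1-only replicate 2 gave -0.27 (adjusted p = 0.4595) and -0.24 (adjusted p = 0.5768). The direction between PDGFRa-only and double-positive cells turned with the setting and is given with the other limits of the analysis.

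The Gli genes encode the zinc-finger transcription factors at the end of the pathway; Gli2 is known mainly as an activator, Gli3 mainly as a repressor, and Gli1 as an activator that is also a target. All 3 were high in PECAM1-only cells, intermediate in double-positive cells and low or nearly absent in PDGFRa-only cells. Gli2 had 52.8 and 83.1 CPM in the PECAM1-only libraries, 12.9 and 18.6 CPM in the double-positive libraries, and 0 and 0.302 CPM in the PDGFRa-only libraries, where 2 counts were found in all. No libraries overlapped between fractions. From summed counts, Gli2 was 373-fold higher in PECAM1-only than in PDGFRa-only cells (counting interval 103 to 3087; adjusted p = 6.154e-12) and 87.3-fold higher in double-positive than in PDGFRa-only cells (23.9 to 726; adjusted p = 9.734e-08). Gli2 was 4.31-fold higher in PECAM1-only than in double-positive cells (log2 fold change -2.11 for double-positive, SE 0.25, adjusted p = 8.505e-07).

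Gli1 (chromosome 10, 127329882 to 127341974, minus strand; ENSMUSG00000025407) was the scarcer activator gene. It had 7.28 and 9.72 CPM in the PECAM1-only libraries, 3.30 and 2.66 CPM in the double-positive, and 0.224 and 0 CPM in the PDGFRa-only libraries, where it had 1 count. Again the fractions did not overlap. The ratio of PECAM1-only to PDGFRa-only was 93.6 (counting interval 16.5 to 3731; adjusted p = 1.791e-07), and that of double-positive to PDGFRa-only 33 (5.58 to 1338; adjusted p = 4.388e-04). Gli1 was 2.85-fold higher in PECAM1-only than in double-positive cells (log2 fold change -1.50 for double-positive, SE 0.38, adjusted p = 0.003549). Without PECAM1-only replicate 2 this last call was lost (-1.27, adjusted p = 0.06235). Gli1 shares 62 exon bases with Arhgap9 on the opposite strand, which had 285 counts over the 6 libraries, and 265 with the antisense gene Gm47200; whether the counting used strand is not given in the sources used here, so reads of these genes cannot be told apart.

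Gli3 (chromosome 13, 15463235 to 15730026, plus strand; ENSMUSG00000021318) was the Gli gene best kept in PDGFRa-only cells. Its level was 27.8 and 24.1 CPM in the PECAM1-only, 13.4 and 10.6 CPM in the double-positive and 1.80 and 2.11 CPM in the PDGFRa-only libraries. The fractions did not overlap, and the PDGFRa-only libraries kept 7.53% (SD 0.868) of the PECAM1-only mean. Gli3 was 13.3-fold higher in PECAM1-only than in PDGFRa-only cells (log2 fold change -3.70 for PDGFRa-only, SE 0.31, adjusted p = 1.653e-09). Double-positive cells stood 2.16-fold below PECAM1-only cells (log2 fold change -1.11, SE 0.23, adjusted p = 6.974e-04) and 6.14-fold above PDGFRa-only cells (log2 fold change -2.59 for PDGFRa-only, SE 0.33, adjusted p = 9.322e-06). Gli3 shares 188 exon bases with Gm6556 on the opposite strand, which had 2 counts.

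Measured per length of exon, the make-up of the Gli RNA differed between fractions as well as its amount. Per kilobase of exon, the summed level of the 3 Gli genes was 12.0 and 16.6 CPM per kb in the PECAM1-only libraries, 3.93 and 4.35 in the double-positive and 0.232 and 0.265 in the PDGFRa-only libraries. Gli2 made up 63.8% and 73.0% of that sum in the PECAM1-only libraries and 47.7% and 62.3% in the double-positive libraries. Gli3, the gene of the main repressor, made up 24.1% and 15.2%, then 35.4% and 25.5%, and in the PDGFRa-only libraries 80.6% and 83.4%. The PDGFRa-only shares rest on 8 and 14 Gli3 counts and on 3 counts of the other two in all. These shares depend on the exon lengths used and were not tested. In the deposited RPKM values, another measure scaled by length, Gli3 was below Gli1 in PECAM1-only libraries (3.04 and 2.64 against 5.01 and 6.14). It was the highest of the 3 in PDGFRa-only libraries there too (0.231 and 0.297).

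Hhip, a membrane-bound inhibitor that captures Hedgehog ligands, was the scarcest member, with 41 counts over the 6 libraries (chromosome 8, 79965851 to 80058006, minus strand; ENSMUSG00000064325). PECAM1-only libraries had 2.33 and 1.72 CPM, double-positive libraries 0.787 and 1.10 CPM, and PDGFRa-only libraries 0.449 and 0 CPM. The order was that of the Gli genes and the libraries of the fractions did not overlap. The ratio of PECAM1-only to PDGFRa-only was 11.3 (counting interval 2.84 to 97.9; adjusted p = 0.002613). Leaving out PDGFRa-only replicate 2 ended this call (log2 fold change -2.12 in place of -3.34, adjusted p = 0.06655). The other Hhip differences were not called: log2 fold change -1.10 (SE 0.61, adjusted p = 0.1692) for double-positive against PECAM1-only, and a ratio of double-positive to PDGFRa-only of 5.21 (1.16 to 48.0; adjusted p = 0.1323). Hhip shares 175 exon bases with Gm27820 on the opposite strand, and reads of the pair cannot be told apart either.

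**Figure D2:**
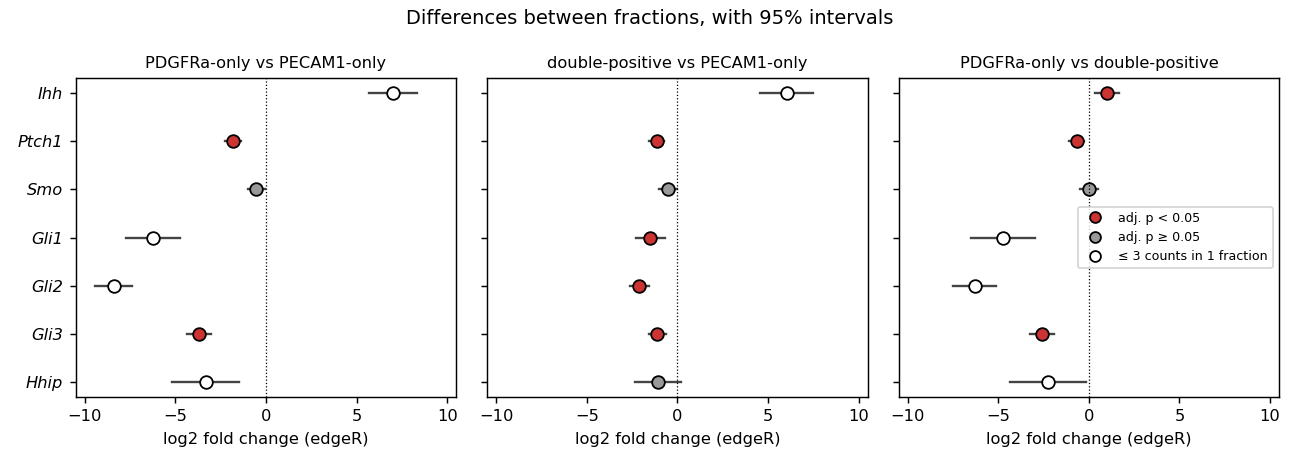
Fitted log2 fold changes (edgeR) of the 7 Hedgehog genes with 95% intervals in the 3 comparisons; red points passed an adjusted p of 0.05, grey points did not, and open points mark genes with 3 or fewer counts in 1 fraction, whose fitted value is no bound. Ihh is the only gene to the right of 0 in each comparison, and the interval of Smo reaches or nears 0 in all 3.

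All 7 genes passed the filter on low counts, but Ihh, Gli1, Gli2 and Hhip did so only through the fractions where they are high. Such a filter favours a difference in these genes without fixing one, so their p values and calls are no independent support for it. The same holds for several genes named below, among them Scube2, Evc, Kif7, Bmp2, Foxa2, Foxf2, Snai1, Ccnd1, Bmp4, Prdm1, Cdk6 and Jag2. In PDGFRa-only against PECAM1-only cells 6 of the 7 were called, Ihh higher and 5 lower, where 59.0% of all tested genes were called (30.1% higher and 28.8% lower). The members' median log2 fold change was -3.34, against 0.0059 over all tested genes. In double-positive against PECAM1-only cells 5 of the 7 were called, Ihh higher and 4 lower, where 38.2% of all were called (21.8% higher and 16.4% lower). The median was -1.11, against -0.0082. In PDGFRa-only against double-positive cells 5 were called, again Ihh higher and 4 lower, where 17.6% of all were called (5.94% higher and 11.7% lower), and the median was -2.24, against -1e-04. Since most genes differed between the single-positive fractions, the count of members says little there beyond the values of each. Among all genes called in these comparisons, 51.1%, 57.0% and 33.7% were higher in the first-named fraction, or 37.8%, 39.8% and 21.9% with library-size scaling.

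Double-positive cells were not equally far along for each gene. Their position was computed on the linear CPM scale as the percent of the way from the PECAM1-only mean (0) to the PDGFRa-only mean (100). Ihh stood at 43.0% and 56.7% in the 2 double-positive libraries. Ptch1 stood at 76.2% and 77.0%, and Gli2 at 81.2% and 72.8%. Gli1 (61.9% and 69.6%), Gli3 (52.5% and 63.8%) and Hhip (68.8% and 51.7%) lay lower. Of the sorted proteins' genes, Pecam1 stood at 65.8% and 71.6% and Pdgfra at 99.1% and 92.9%. Double-positive cells thus had nearly the full Pdgfra level of PDGFRa-only cells beside about 50.1% (SD 9.68) of their Ihh level. Both fractions were sorted for PDGFRa, so Pdgfra is no neutral measure beside Ihh. Of other pathway genes named below, Snai1 stood at 50.7% of the PDGFRa-only mean, Foxa2 at 57.7%, Scube2 at 67.8% and Lrp2 at 81.0%. A reduced level was thus not particular to Ihh. Double-positive cells had 23.2% (SD 5.95) of the Gli2 and 46.2% (SD 7.45) of the Gli3 level of PECAM1-only cells. Whether double-positive cells are 1 state or a mixture cannot be read from pooled RNA, and differences between these positions were not tested.

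**Figure D3:**
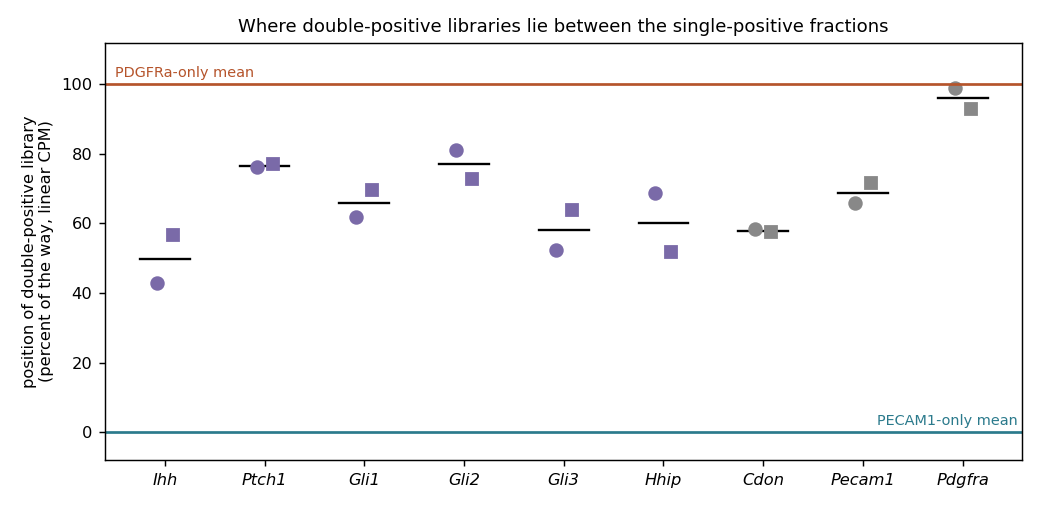
Position of each double-positive library (circle replicate 1, square replicate 2, bar their mean) between the PECAM1-only mean (0) and the PDGFRa-only mean (100), in percent on the linear CPM scale, for 6 Hedgehog genes (purple) and Cdon, Pecam1 and Pdgfra (grey). Ihh has the lowest mean (49.8%) and Pdgfra the highest (96.0%); Smo, not called in any comparison, is not drawn.

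Levels of different members can be compared only per length, here as CPM per kilobase of merged exon. In PECAM1-only cells the order was Gli2 (9.90 ± 3.12 CPM per kb, SD), Ptch1 (6.47 ± 1.69), Smo (5.12 ± 1.2), Gli3 (2.71 ± 0.270), Gli1 (1.70 ± 0.346), Hhip (0.223 ± 0.0471) and Ihh (0.0239 ± 0.0338). Ptch1 and Smo overlapped there, and the lowest Gli2 library (7.69) was barely above the highest Ptch1 library (7.66). In double-positive cells Smo (3.57 ± 0.854) came first, then Ptch1 (2.92 ± 0.0273), Gli2 (2.29 ± 0.588), Ihh (2.03 ± 0.392), Gli3 (1.25 ± 0.202), Gli1 (0.597 ± 0.0912) and Hhip (0.104 ± 0.0240), with Gli2 and Ihh overlapping. In PDGFRa-only cells Ihh (4.05 ± 0.828) and Smo (3.52 ± 0.184) overlapped at the top, followed by Ptch1 (1.84 ± 0.157) and Gli3 (0.204 ± 0.0235). Hhip, Gli1 and Gli2 lay at 0.0220 to 0.0247 CPM per kb there and could not be ordered. Ihh thus ranked last of the 7 in PECAM1-only cells and level with Smo at the top in PDGFRa-only cells. The Ptch1 exons merge to 14185 bases and include alternative exons, which lowers its level on this scale. The deposited RPKM values, also scaled by length, gave another order for some members. In PECAM1-only libraries Ptch1 (28.8 and 39.3 RPKM) was above Gli2 (19.7 and 28.0), and Gli1 (5.01 and 6.14) above Gli3 (3.04 and 2.64). Ihh was again lowest there, and it again overlapped Smo at the top in PDGFRa-only libraries. The order of the other members thus depends on the measure.

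The closest profiles were found by the root mean square distance between log2 CPM values over the 6 libraries, each centred on its own mean. Among the members, Gli1 and Gli3 were closest to each other (0.479 log2 units), followed by Ptch1 and Hhip (0.504) and Ptch1 and Smo (0.544), while Ihh was at least 2.43 from every other member. Over all tested genes, the nearest to Ihh were 9130017N09Rik (0.137), Maml3 (0.160), a co-activator of Notch signalling, and Zyx (0.190), a focal adhesion protein. Nearest to Gli1 were Tenm3 (0.158), Nodal (0.163), a TGF-beta family ligand, and Nefh (0.166), a neurofilament subunit. Gli2 was nearest to Kbtbd11 (0.183), Uchl1 (0.199) and Smc1b (0.332), a meiotic cohesin subunit. Nodal had 1.65 ± 0.840 CPM in PDGFRa-only, 13.7 ± 0.610 CPM in double-positive and 44.1 ± 1.04 CPM in PECAM1-only cells. Gli3 was nearest to Gm13151 (0.118), Rpl10l (0.118) and D1Pas1 (0.123). Ptch1 was nearest to Mapk8ip1 (0.0910), Vangl2 (0.0939), a planar cell polarity protein, and Wdr96 (0.109). The nearest to Smo were Nudt14 (0.0715), 9430015G10Rik (0.0830) and Asrgl1 (0.0834), and to Hhip Zap70 (0.137), Aard (0.143) and Arhgef15 (0.156). With 6 libraries in 3 fractions, many genes have such profiles.

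Other genes of the pathway were divided by role. Ihh was the only Hedgehog ligand gene above trace level, since Shh had 2 and Dhh 9 counts over the 6 libraries and neither was tested. Of 8 genes for ligands, ligand maturation and release, 4 were tested; between PDGFRa-only and PECAM1-only cells 2 were higher, 1 lower and 1 not called, where 59.0% of all tested genes were called, and the median log2 fold change was 0.76. Scube2, which helps release Hedgehog from producing cells, had 110 and 114 CPM in PDGFRa-only, 77.4 and 74.5 CPM in double-positive and 1.16 and 1.10 CPM in PECAM1-only libraries. It was thus high in the same fractions as Ihh, without overlap (log2 fold change 6.60, adjusted p = 2.027e-14). Its relative Scube3 ran the other way, with 3.0 ± 0.831, 9.80 ± 2.73 and 24.3 ± 7.04 CPM in the same order (-3.05, adjusted p = 9.183e-08). Disp1, the transporter that releases the ligand, had a log2 fold change of 0.75 (adjusted p = 0.01589), a call lost under 6 of the 14 alternatives. Hhat, the ligand's acyltransferase, was not called (0.77, adjusted p = 0.2384).

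Other genes for ligand-binding proteins went in different directions. The co-receptor Cdon followed the order of Ptch1, from 35.6 ± 0.0535 CPM in PECAM1-only through 19.3 ± 0.145 CPM to 7.51 ± 2.71 CPM in PDGFRa-only cells (-2.28, adjusted p = 1.167e-07). Lrp2, a large endocytic receptor that can bind Hedgehog ligands, went the opposite way at a far higher level, with 3628 ± 796 CPM in PDGFRa-only, 2939 ± 128 CPM in double-positive and 225 ± 21.3 CPM in PECAM1-only cells (4.01, adjusted p = 5.631e-13). Gpc3, a glypican that binds Hedgehog ligands, was higher as well (3.06, adjusted p = 1.927e-10). Boc was not called (-0.06, adjusted p = 0.928), and Gas1, with 29 counts, was not tested.

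Intracellular regulators went in both directions. Of 18 tested of 19, 4 were higher, 5 lower and 9 not called between PDGFRa-only and PECAM1-only cells. Of all tested genes 59.0% were called there (30.1% higher and 28.8% lower). The median of the list was 0.27. Kif7, the ciliary kinesin that organises the GLI proteins, was lower in PDGFRa-only cells (log2 fold change -2.87, adjusted p = 2.986e-05), as were the kinase gene Csnk1a1 (-0.76, adjusted p = 2.981e-04), the ubiquitin ligase subunit gene Btrc (-0.91, adjusted p = 5.77e-04) and Evc2, a partner of Evc (-0.85, adjusted p = 0.01677). Kif7 had 1 and 12 counts in the PDGFRa-only libraries. Its log2 fold change ran from -5.12 to -2.20 when 1 library was left out. Evc, which acts with Smoothened at the cilium, had 3 counts in the PDGFRa-only fraction and was 16.2-fold higher in PECAM1-only cells (counting interval 5.26 to 80.6; adjusted p = 1.039e-04). Gsk3b, a kinase that phosphorylates GLI proteins, was higher (1.04, adjusted p = 8.39e-06). Fbxw11, Prkaca and Prkar1a were also higher, by log2 fold changes of 0.51, 0.68 and 0.47, but these calls were lost with library-size or upper-quartile scaling, each of which left 1 gene higher and 7 lower. Without PECAM1-only replicate 1 the list had 1 gene higher and 4 lower, and without replicate 2 it had 2 higher and 6 lower. The list's median was 0.06 with upper-quartile scaling and turned to -0.02 with library-size scaling, which shifted the median of all tested genes by -0.21 and -0.29. Sufu, the main cytoplasmic inhibitor of the GLI proteins, was not called (0.46, adjusted p = 0.111).

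The primary cilium is where Smoothened acts. Of 25 cilium and intraflagellar transport genes, all tested, 3 were higher, 13 lower and 9 not called in PDGFRa-only against PECAM1-only cells. The median was -0.58. In either direction, 16 called of 25 is close to the 59.0% of all tested genes. By direction the list was less even than all tested genes, of which 30.1% were higher and 28.8% lower. This lean of the list was not tested. Cc2d2a, a transition zone protein, differed most: 40.8 ± 0.207 CPM in PECAM1-only, 19.8 ± 0.190 CPM in double-positive and 4.36 ± 0.184 CPM in PDGFRa-only cells (log2 fold change -3.22, adjusted p = 4.271e-10). Ttc21b (-2.35, adjusted p = 5.022e-06) and Rpgrip1l (-1.44, adjusted p = 9.144e-06) were lower too. Ift20 (0.89, adjusted p = 2.968e-04), Inpp5e (0.99, adjusted p = 4.612e-04) and Kif3b (0.48, adjusted p = 0.03218) were the 3 higher genes; the Kif3b call was lost under 9 of the 14 alternatives.

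Genes known as Hedgehog targets in other tissues did not move together. Of 17, 13 were tested, and 5 were higher, 7 lower and 1, Bcl2, not called in PDGFRa-only against PECAM1-only cells, where 59.0% of all tested genes were called (30.1% higher and 28.8% lower); the median was -0.43. The 5 higher genes were Bmp2, a BMP ligand, with 544-fold the PECAM1-only level (counting interval 97.2 to 21544; adjusted p = 1.276e-12), the transcription factor genes Foxa2 (at least 157-fold) and Foxf2 (at least 43.5-fold), both at 0 counts in PECAM1-only cells and set against a floor of 3 counts for the fraction as a whole, Snai1 (log2 fold change 7.20, adjusted p = 9.572e-12) and the cyclin gene Ccnd2 (5.89, adjusted p = 5.605e-14). Of these, Bmp2, Foxa2, Foxf2 and Snai1 passed the filter on low counts only through the fractions where they are high. Genes called in either direction are also known outside the pathway, and what changed them was not tested. The 7 lower genes were Ccnd1 (log2 fold change -5.82), Bmp4 (-5.41), Prdm1 (-4.38), Cdk6 (-3.70), Sfrp1 (-2.46), Jag2 (-2.45) and Mycn. Mycn only just passed the test (-0.43, adjusted p = 0.0452). Among the 7 lower genes, Ccnd1, Bmp4, Prdm1, Cdk6 and Jag2 likewise passed the filter on low counts only through the fractions where they are high. These lower genes were not followed one by one through the alternatives. In double-positive against PECAM1-only cells 5 of the 13 were higher and 6 lower, where 38.2% of all tested genes were called.

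**Figure D4:**
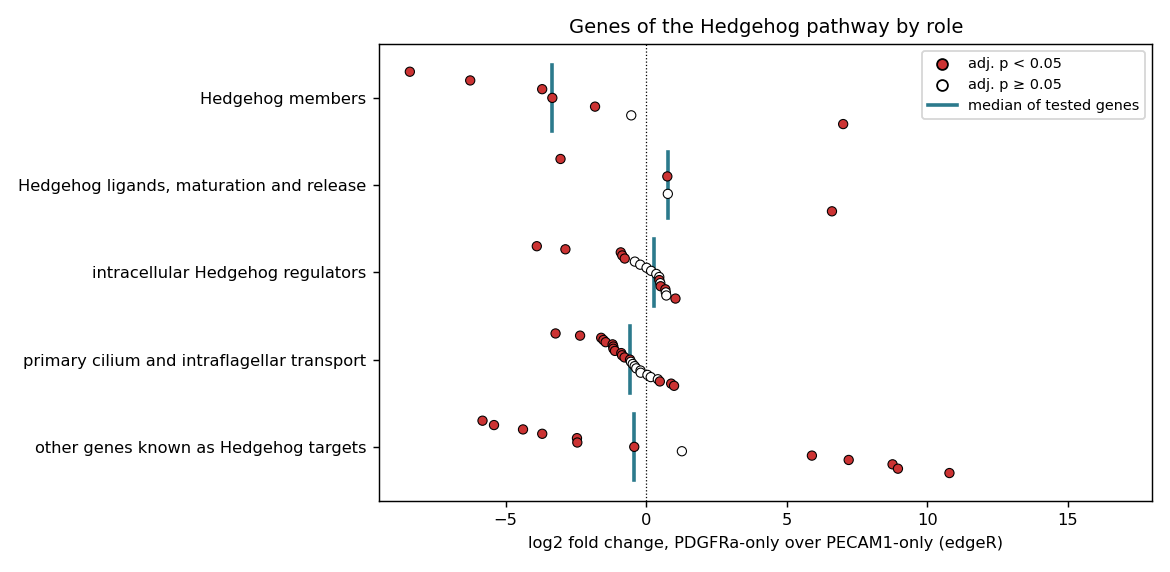
Fitted log2 fold change (edgeR) between PDGFRa-only and PECAM1-only cells of tested genes in 5 lists of the Hedgehog pathway, by role; each point is 1 gene, filled where its adjusted p was below 0.05, bars mark list medians, and fitted values of genes with 3 or fewer counts in 1 fraction are no bounds. The 7 Hedgehog genes have a median of -3.34 with Ihh alone on the right, regulators and cilium genes lie nearer 0, and target genes fall on both sides.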

How the data were processed

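Total RNA of 3 sorted ESC fractions was sequenced, with 2 libraries each. The authors amplified the RNA before making libraries, per the labels' protocols, so reads are not independent molecules. The deposited count table gives raw read counts per gene, with no normalization by the authors; the submitters' processing notes name GRCm38 and, without roles, TopHat2 2.0.8b, Bowtie2 2.1.0, HTSeq 0.5.4p3 and cutadapt 1.2.1. A second deposited table gives RPKM values for 16105 genes, made by the authors in a way not given in the sources used here; it served only as an alternative, and for 6715 genes (41.7%) its 6 values were whole multiples of 1 step (tolerance 0.001).

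Counts were fitted with edgeR 4.0.16 in R 4.3.3 (TMM scaling, filterByExpr with a minimum count of 10, robust quasi-likelihood fit with 1 mean per fraction, two-sided tests). The common biological coefficient of variation was 13.5%, and 3 residual degrees of freedom remained. Intervals of fold changes come from the test statistic. Ratios for a fraction with 1 to 3 counts use summed counts and effective library sizes with exact 95% intervals. Figures were drawn with matplotlib 3.10.9 in Python 3.11.15, and alternatives used DESeq2 1.42.0 and limma 3.58.1 (pseudocount 1 for RPKM). Positions and exon lengths come from GENCODE M21, which held 36639 of the 38561 identifiers; promoters come from RefSeq. The fit was also run on simulated data in which few genes differed between fractions. Far more genes were called here, so that run does not measure the error rate in these data.

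The 7 members, the pathway and marker lists and the tests were chosen with earlier results of these data known. Genes named besides the members were up to 3 per list with the smallest p between the single-positive fractions, and the 3 nearest profiles of each member (prior count 2). Others, among them Shh, Dhh, Hhat, Boc, Gas1, Sufu, Bcl2 and lists' called genes beyond those 3, were named after their values were seen. The counts of the receptor list are not reported here. The alternatives were run for pathway genes only after the data were seen.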

Additional observations from a re-analysis of the deposited data

How the results depend on the processing

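Ihh, Gli2 and Gli3 kept their direction and their call in both comparisons with PECAM1-only cells under all 14 alternatives (Gli1 in both comparisons with PDGFRa-only cells): upper-quartile or library-size scaling, DESeq2, no filter or a minimum count of 50, leaving out each of the 6 libraries, the replicate block, the 2 compared fractions alone, and limma on log2(RPKM + 1). Ptch1 did so too in those 2 comparisons. Between PDGFRa-only and double-positive cells calls were less stable. There DESeq2 and the RPKM values each called 3 of the 7 genes in place of 5, and RPKM called 773 of all genes in place of 2450. Leaving out 1 library gave 3 to 5 members and 1326 to 2945 of all genes, the lowest being 1326 without double-positive replicate 1 and 1444 without replicate 2. The same omissions gave 5 to 7 members between the single-positive fractions and 4 to 6 between double-positive and PECAM1-only. Ihh between PDGFRa-only and double-positive cells was also lost with upper-quartile scaling (adjusted p = 0.05041), library-size scaling (0.05805) and RPKM (0.07114), and Ptch1 with RPKM (0.06168). Smo turned from -0.0156 to 0.0157 in that comparison with DESeq2, to 0.0387 without PDGFRa-only replicate 1 and to 0.25 without double-positive replicate 2; leaving out 1 library gave -0.2473 to 0.25. Smo became called under 7 of the 14 alternatives between PDGFRa-only and PECAM1-only cells: both scalings (upper-quartile -0.74, adjusted p = 0.01003), a minimum count of 50 (0.0359), without PECAM1-only replicate 1 (0.03284), the block, the 2 fractions alone (0.04532) and RPKM (0.01057). Between double-positive and PECAM1-only cells it became called under 6: both scalings (upper-quartile 0.02237), without either PDGFRa-only replicate (0.04155 and 0.04323), the block and RPKM (0.04915). Where a fraction had few counts, the fitted log2 fold change followed 1 library: without PDGFRa-only replicate 1, Gli1 went from -4.76 to -7.29 against double-positive and Hhip from -3.34 to -6.74 against PECAM1-only, and without PDGFRa-only replicate 2, Gli2 went from -6.30 to -9.59 against double-positive. Some pathway genes were followed one by one through the alternatives. Among them, calls between the single-positive fractions that 1 library ended were Disp1 (0.55 without PDGFRa-only replicate 2 and 0.67 without PECAM1-only replicate 2), Evc2 (-0.75 and -0.74 without replicate 1 of either), Prkaca (0.29 without PDGFRa-only and 0.44 without PECAM1-only replicate 1), and Fbxw11 (0.38), Prkar1a (0.26) and Kif3b (0.34) without PDGFRa-only replicate 2. The last 3 were also lost without either PECAM1-only replicate, and Evc2 with DESeq2 (-0.90). Hhip was not tested at a minimum count of 50, nor in the fit of PDGFRa-only and double-positive alone. The causes of these changes were not tested.

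The replicate block gave 8397, 5644 and 2834 called genes and 7, 6 and 5 called members, the added member being Smo (adjusted p = 0.02922 and 0.0437). Deviations of same-numbered libraries correlated across genes by -0.03 between PDGFRa-only and PECAM1-only. The values were 0.13 between PDGFRa-only and double-positive and 0.18 between PECAM1-only and double-positive. Because the first pair was not above 0.1, the numbers were not taken to pair the libraries. Whether same-numbered libraries shared an experiment cannot be told from these values.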
